A study of Homo sapiens with 15 samples.

Results

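The DEAD and DEAH box RNA helicases of the human genome were examined for G-quadruplexes (G4s) at their promoters in K562, an established human chronic myelogenous leukaemia line. They were chosen by name: protein-coding genes on the autosomes and chromosome X whose symbol is DDX or DHX followed by a number and at most 1 letter, leaving out DHX36, DHX9 and DDX11. This gave 50 genes, 36 DEAD box (DDX) and 14 DEAH box (DHX), among 19756 protein-coding genes. A member was described by the peaks and regions within 1 kb of any start site of its protein-coding transcripts, a stretch called its promoter below. The family name was taken from the symbols, since protein sequences were not used here.

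The chromatin came from untreated, asynchronously growing, formaldehyde cross-linked K562 cells and was precipitated with BG4, an antibody to folded G4 DNA. There were 5 sequencing libraries from 2 biological replicates, libraries 1a and 1c from replicate 1 and libraries 2a, 2b and 2c from replicate 2. Every group described here is this single untreated line, and each value below is a peak called in 1 library or a region shared by at least 3 of the 5. Not analysed here were 2 K562 input libraries and 8 HaCaT bisulfite libraries (4 control, 4 after 48 h in 10 uM entinostat). RNA levels were not among the data used, so neither the identity of the line nor the expression of any helicase was checked.

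RNA helicases of this superfamily use ATP to open short RNA duplexes or to strip proteins from RNA. They are named after the Asp-Glu-Ala-Asp or Asp-Glu-Ala-His residues of their ATP-binding site. Different members drive spliceosome rearrangements, ribosome assembly, mRNA export, translation and decay, and a few serve in viral RNA sensing or only in germ cells. A G4 is a stack of guanine quartets that can form where a strand carries 4 closely spaced runs of guanines.

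In all, 22 of the 50 helicase genes had a high-confidence BG4 region at a promoter (44%, 95% Wilson interval 31.2 to 57.7). Among all protein-coding genes the share was 34.9%. Nearly all helicase genes have a CpG island, a CpG-rich stretch typical of broadly active promoters: a strict island lay within 1 kb of a start site in 48 of 50 (96.0%), against 75.5% of all genes. Among genes with such an island, 22 of 48 helicase genes (45.8%, 32.6 to 59.7) and 45.5% of all genes had a region. The difference of 0.354 percentage points among island genes lies well inside the interval on 48 genes.

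The difference from all genes changed when single libraries were left out and with peak strength. It was 9.05 percentage points with all 5 libraries. Regions rebuilt from 4 libraries still needed at least 3, a stricter rule than 3 of 5. The difference was then 2.39 without 2b, 3.68 without 2c, 4.98 without 1a, 5.47 without 1c and 9.31 without 2a. The part of the stricter rule in these changes was not tested. Weighted by island class the difference was 0.24 points with all libraries and ran from -5.60 (without 2b) to 1.00 (without 2a), so it had no stable direction. Weighted instead by deciles of promoter GC content it was 9.76 points.

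The sequences below show what BG4 regions looked like at the 5 promoters whose region held a canonical G4 motif. Such a motif was taken as 4 G runs, each at least 3 long and joined by 1 to 7 other bases, searched on both strands. Each line gives up to 150 bases of the region on the strand that carries the motif, 5′ to 3′, without annotated untranslated sequence, and capitals mark runs of 3 or more G. The windows are from GRCh37 (hg19): DHX35 at chr20:37590743-37590892 (plus strand), DDX59 at chr1:200639063-200639212 (plus), DHX34 at chr19:47852283-47852432 (plus), DDX46 at chr5:134094274-134094423 (plus) and DDX10 at chr11:108535597-108535746 (minus).
DHX35: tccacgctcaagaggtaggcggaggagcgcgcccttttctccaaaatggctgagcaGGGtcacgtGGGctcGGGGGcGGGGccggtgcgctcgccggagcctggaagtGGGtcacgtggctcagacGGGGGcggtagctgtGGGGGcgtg
DDX59: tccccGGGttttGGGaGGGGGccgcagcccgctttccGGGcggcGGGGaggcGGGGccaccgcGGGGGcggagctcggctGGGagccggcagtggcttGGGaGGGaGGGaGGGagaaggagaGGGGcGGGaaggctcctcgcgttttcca
DHX34: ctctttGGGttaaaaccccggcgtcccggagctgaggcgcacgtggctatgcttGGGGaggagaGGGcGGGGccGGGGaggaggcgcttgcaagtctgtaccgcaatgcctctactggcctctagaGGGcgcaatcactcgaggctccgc
DDX46: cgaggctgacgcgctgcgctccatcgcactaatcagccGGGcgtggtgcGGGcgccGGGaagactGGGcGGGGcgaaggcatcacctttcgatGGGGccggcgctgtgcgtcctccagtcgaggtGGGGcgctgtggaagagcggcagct
DDX10: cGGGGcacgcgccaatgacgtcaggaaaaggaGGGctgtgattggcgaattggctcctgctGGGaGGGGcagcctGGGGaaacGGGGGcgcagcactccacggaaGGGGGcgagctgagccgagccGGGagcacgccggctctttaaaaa

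At DHX35, DHX34 and DDX46 the G-rich strand was the strand that carries the gene's own sense sequence. At DDX59 and DDX10 it was the opposite strand. DDX59 held 2 motifs, a longer one of 31 bases with its middle at -80 bp from the start site and a compact one of 15 bases, with single-base loops, at -133 bp. Each of these 5 regions was called in all 5 libraries, and all 6 motifs lay upstream, at -224 to -80 bp from the nearest start site.

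Other regions called in 5 libraries held runs of G with no canonical motif. The examples are DHX30 at chr3:47866353-47866502 (minus strand) and DDX5 at chr17:62502449-62502598 (minus). Their GC content (77.3% and 69.3%) was within or above the range of the motif-bearing windows (65.3% to 75.3%). So was that of windows not shown, another at DDX59 (78%, 7 runs of 3 or more G) and one of 81 bases at DDX19B (71.6%, 2 runs). The DDX56 window, also not shown, had 61.3% GC and 2 runs.
DHX30: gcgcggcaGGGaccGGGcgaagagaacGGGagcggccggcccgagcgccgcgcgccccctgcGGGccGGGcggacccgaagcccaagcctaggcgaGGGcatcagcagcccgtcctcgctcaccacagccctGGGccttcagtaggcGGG
DDX5: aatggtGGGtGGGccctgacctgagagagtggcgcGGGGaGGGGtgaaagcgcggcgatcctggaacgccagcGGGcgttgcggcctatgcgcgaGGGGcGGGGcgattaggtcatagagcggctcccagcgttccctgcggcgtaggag

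The DHX30 window held 8 runs of 3 or more G and the DDX5 window 7. The motif-bearing windows held from 6 (DHX34) to 14 (DDX59). At DHX30 and DDX5 no 4 neighbouring runs on this strand were joined by loops of 1 to 7 bases only. A canonical motif was present in 5 of the 24 regions at helicase promoters (20.8%, 95% Wilson interval 9.24 to 40.5) and in 37.3% of all 6848 promoter regions. With loops of up to 12 bases the shares were 33.3% and 53.4%, and with runs of only 2 or more G they were 79.2% and 93.8%. The definitions are nested and count the same regions. The interval of the canonical share includes the share of all promoter regions. No interval was set on the shares of the wider definitions (8 and 19 of the 24 helicase regions). That statement therefore covers the canonical motif only and must not be carried over to them. The helicase share was the lower under each definition. The helicase regions were narrower (median 180.5 bp against 215 bp) and had less GC (median 67.2% against 71.1%), and the part of width and GC in these shares was not tested.

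The number of libraries with a promoter peak varied widely across the family. Every library had a peak at 10 helicase genes (20%, interval 11.2 to 33.0, against 23.1% of all genes). Peaks were found in 4 libraries at 6 genes (12%, against 7.16% of all genes) and in 3 at 8 (16%, against 5.44%). They were found in 1 or 2 libraries at 8 genes and in none at 18. For 2 libraries the shares were 6% and 5.46%, and for 1 library 10% and 6.65%. Genes with no peak in any library made up 36.0% of the helicases (24.1 to 49.9) and 52.2% of all genes. Among genes with a strict CpG island these shares were 33.3% (16 of 48, interval 21.7 to 47.5) and 38.5%, and the interval includes the background. Of the genes with a high-confidence region, 45.5% of the helicases (10 of 22, interval 26.9 to 65.3) and 66.2% of all genes had a peak in every library, a difference that was not tested.

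In single libraries the helicase share was above the background in 5 of 5. A promoter peak was present at 24 of the 50 genes in library 1a (48.0%, against 38.7% of all genes), at 21 in 1c (42.0%, against 32.7%), at 17 in 2a (34.0%, against 32.0%), at 25 in 2b (50%, against 35.6%) and at 22 in 2c (44%, against 39.1%). Library 2b had the most helicase genes and 2a the fewest. Averaged over technical libraries first, the biological replicates had 22.5 and 21.3 helicase genes with a peak, a mean of 21.9 ± 0.825 (SD, n = 2). Among the single libraries, only 2b had a Wilson interval (36.6 to 63.4) wholly above its background.

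**Figure D1:**
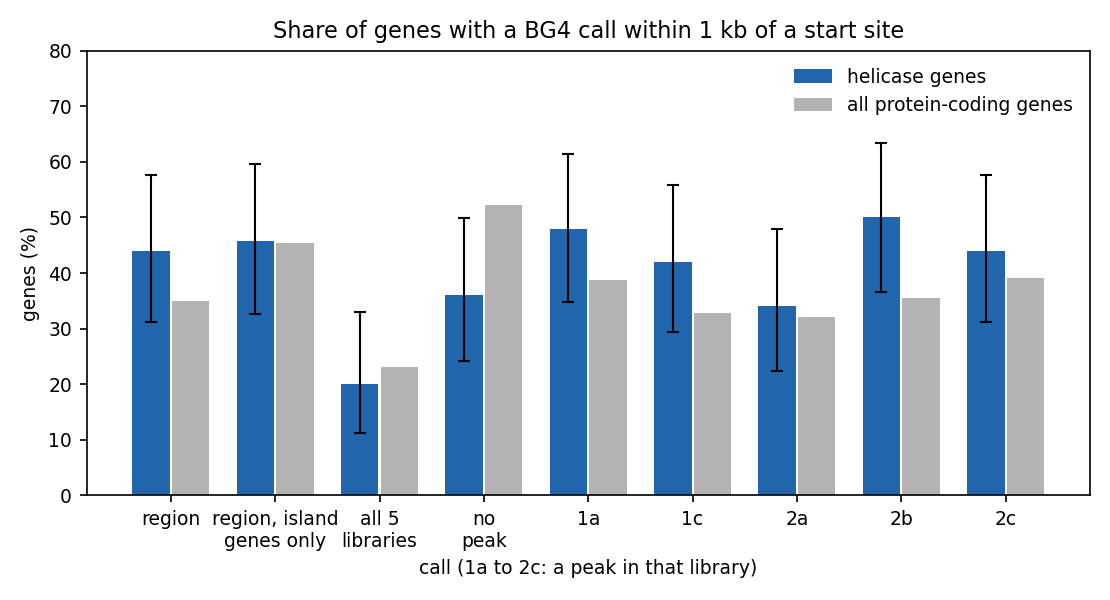
Bars show the percentage of the 50 helicase genes (blue, with 95% Wilson intervals) and of all 19756 protein-coding genes (grey) with each call within 1 kb of a start site; the second pair is limited to genes with a strict CpG island. The blue bar is above the grey one for a region (44% and 34.9%), level with it among island genes (45.8% and 45.5%) and below it for a peak in all 5 libraries (20% and 23.1%).

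Helicases of pre-mRNA splicing had the most regions of any role. Of 13 such genes, 9 had a high-confidence region (69.2%, 95% Wilson interval 42.4 to 87.3), against 34.9% of all genes. All 13 have a strict CpG island, and the 45.5% of island genes with a region lies inside that interval. Of the 16 ribosome biogenesis helicases 5 had a region (31.3%, 14.2 to 55.6), and the intervals of these 2 groups overlap. Of the 6 genes of mRNA translation, export and decay, 3 had a region, as did 3 of the 6 genes of other or less known role and both genes of mitochondrial RNA. The 3 antiviral and the 4 germ line genes had no region and no peak in any library, with intervals up to 56.1% and 49.0%. By subfamily, 15 of 36 DEAD box genes (41.7%) and 7 of 14 DEAH box genes (50%) had a region.

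**Figure D2:**
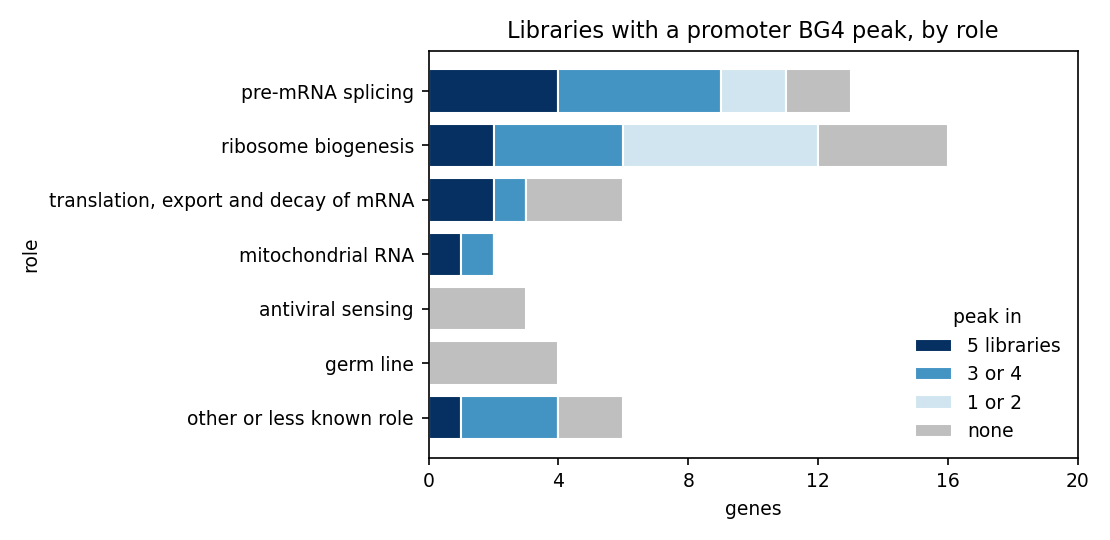
Each bar counts the helicase genes of 1 role, coloured by the number of libraries (5, 3 or 4, 1 or 2, none) with a peak within 1 kb of a start site. Splicing helicases were mostly in 3 or more libraries (9 of 13). Of the 16 ribosome biogenesis helicases, 6 were in 3 or more libraries and 6 in 1 or 2. Antiviral and germ line helicases were in none.

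Among the splicing helicases, DHX35, found in catalytically active spliceosomes, had the highest rank in the family by its lowest percentile over the 5 lists, the order used here. The fold enrichment, the signal at a peak's summit over local background as the authors' peak caller gave it, was 10.6 (1a) and 10.1 (1c) in replicate 1 and 9.87 (2a), 9.85 (2b) and 8.02 (2c) in replicate 2. Library 2c was the lowest and stood below the other 4, which lay close together. In every list these peaks ranked at or above the 80.3rd percentile of fold enrichment, although DHX34 ranked higher in 1a, 1c and 2c and DDX59 and DDX19B in 1a. The DHX35 region (chr20:37590743-37591045) covered a start site, untranslated sequence and the first coding bases, and began at -199 bp.

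DDX5, also called p68, is a splicing factor and transcriptional coactivator that can itself unwind G4 DNA. Its folds were 8.42 (1a) and 5.81 (1c) in replicate 1 and 8.15 (2a), 6.25 (2b) and 7.66 (2c) in replicate 2, with no separation of the replicates. The region (chr17:62502437-62502619) lay 30 bp upstream of the main start site, in sequence that longer DDX5 transcripts annotate as intron. It was also within 1 kb of a start site of CEP95, which runs the other way.

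DDX42 and DDX46, both of the U2 snRNP that recognises the branch point, had weaker peaks in all 5 libraries. At DDX42 (chr17:61850877-61851152, shared with the opposite gene CCDC47) the folds were 7.47 (1a) and 7.25 (1c) in replicate 1 and 4.59 (2a), 5.34 (2b) and 5.20 (2c) in replicate 2. At DDX46 (chr5:134094274-134094492) they were 5.31 (1a) and 6.59 (1c) in replicate 1 and 4.59 (2a), 5.58 (2b) and 4.04 (2c) in replicate 2. The libraries of replicate 1 were the highest at DDX42 but not at DDX46, where 1a lay among the libraries of replicate 2. Both genes fell as low as the 7.56th percentile, in library 2a.

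The other 5 splicing helicases with a region had peaks in 3 or 4 libraries. DDX23, the U5 snRNP helicase of spliceosome activation, lacked a peak in 2c, and DHX15, which takes spent spliceosomes apart, lacked one in 2b. DDX41, mutated in familial myeloid neoplasms, had peaks in 1a, 1c and 2b, with folds of 7.09, 7.36 and 5.39. DHX38, which acts before the second step of splicing, had them in 1a, 2b and 2c, with 7.09, 7.19 and 5.90. DDX39B, the export and splicing helicase UAP56, had peaks only in replicate 2, with folds of 5.86 in 2a, 5.55 in 2b and 5.67 in 2c, and was the single helicase whose region rested on that replicate alone.

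DHX8, which releases spliced mRNA, had peaks in 2 libraries (2a at 6.04 and 2b at 5.08) and DDX39A, the paralogue of DDX39B, in 1 (1c, at 4.65). DHX16, an activator of the first splicing step, and DDX17, the paralogue of DDX5, had none. The 2 paralogue pairs therefore differed in calls, DDX5 in 5 libraries against DDX17 in none, and DDX39B in 3 against DDX39A in 1. GC content within 1 kb of the main start site was 61.9% at DDX5 and 60.3% at DDX17, and 53.5% at DDX39B and 56.2% at DDX39A, so the paralogue with a region was the richer in 1 pair and the poorer in the other.

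**Figure D3:**
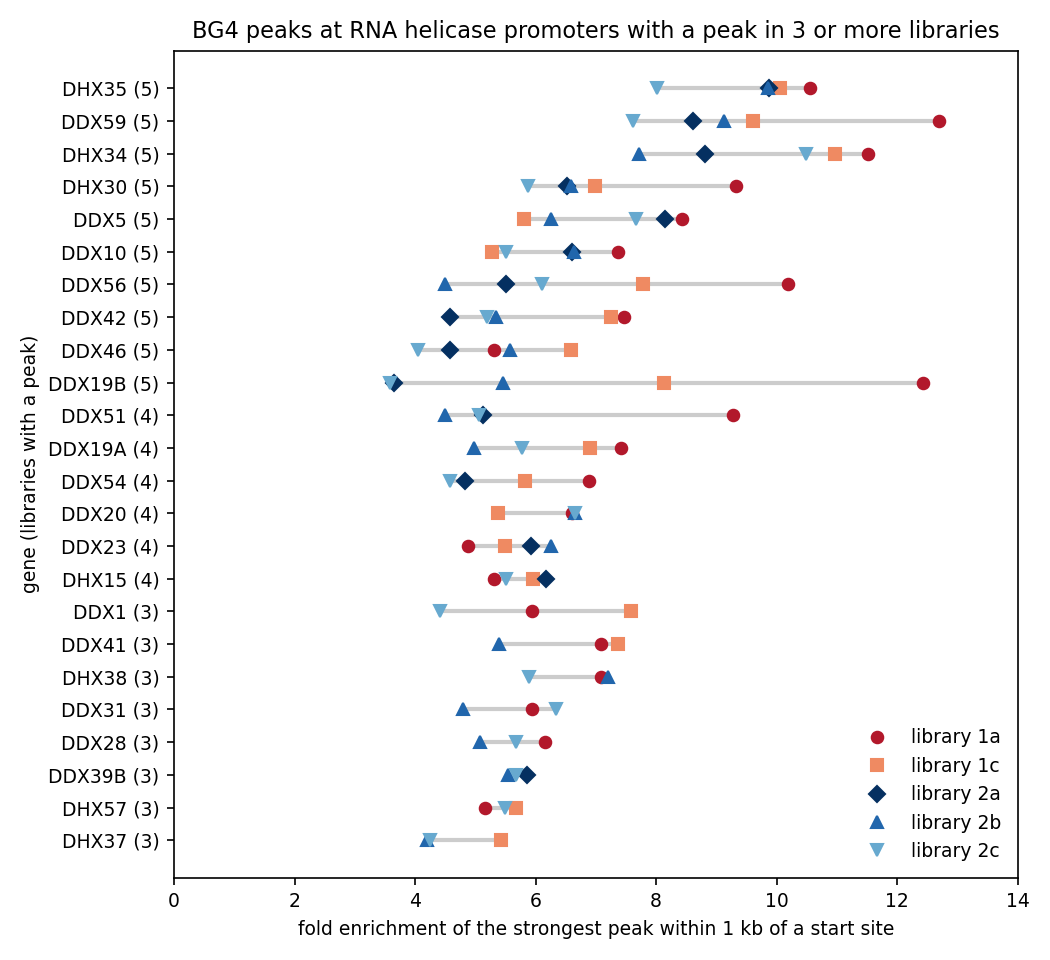
Each row is a helicase gene with a promoter peak in 3 or more libraries (number in brackets), and each symbol is the fold enrichment of its strongest peak within 1 kb of a start site in 1 library; grey lines span the range. DHX35, DDX59 and DHX34 were at 7.62 or more in every library, whereas DDX19B ran from 3.58 in library 2c to 12.4 in 1a.

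Only 2 of the 16 ribosome biogenesis helicases had peaks in all 5 libraries. DDX10, a factor of small-subunit assembly that is fused to NUP98 in some leukaemias, had folds of 7.37 (1a) and 5.28 (1c) in replicate 1 and 6.61 (2a), 6.64 (2b) and 5.51 (2c) in replicate 2, with the 2 libraries of replicate 1 at either end. DDX56, a nucleolar helicase of large-subunit assembly, had 10.2 (1a) and 7.78 (1c) in replicate 1 and 5.51 (2a), 4.49 (2b) and 6.10 (2c) in replicate 2, so both libraries of replicate 1 lay above all 3 of replicate 2. The DDX10 region was at chr11:108535565-108535789 and that of DDX56 at chr7:44613531-44613721, each 7 bp from a start site on the upstream side.

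DDX51, which acts in rRNA maturation, was called in 4 libraries, with folds of 9.27 in 1a, 5.12 in 2a, 4.49 in 2b and 5.06 in 2c. Its promoter was the most GC-rich of the family, at 69.7%, and held 3 motifs, but the region (chr12:132628857-132629010), shared with NOC4L on the other strand, held none. DDX54 was called in 4 libraries and DHX37, of the small-subunit processome, in 3 (5.42 in 1c, 4.19 in 2b and 4.25 in 2c), in the shortest helicase region, of 71 bp. DDX31 had peaks in 3 libraries that shared no base in all 3, so it had no region: the peaks of 1a and 2c lay at 1 start site and that of 2b at another.

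The remaining ribosome biogenesis helicases had isolated peaks or none. DDX21, which links rRNA transcription and processing, and DDX55 had peaks in 2 libraries each. DDX18, DDX47, DDX49 and DDX50 had a peak in a single library, with folds from 3.94 (DDX50, 2b) to 8.11 (DDX18, 1a). DDX24, DDX27, DDX52 and DHX33 had none. Of the 8 helicases with peaks in 1 or 2 libraries, these were 6.

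DHX34 and DDX19B were the mRNA surveillance and export helicases with peaks in all 5 libraries. DHX34, a factor of nonsense-mediated decay, had folds of 11.5 (1a) and 11.0 (1c) in replicate 1 and 8.81 (2a), 7.71 (2b) and 10.5 (2c) in replicate 2, and ranked at the 75.2nd percentile or higher in every list. The region (chr19:47852283-47852629) spanned -289 to 57 bp around its only start site. DDX19B, which remodels mRNA at the nuclear pore together with GLE1, had 12.4 (1a) and 8.13 (1c) in replicate 1 and 3.65 (2a), 5.47 (2b) and 3.58 (2c) in replicate 2. Both libraries of replicate 1 were above those of replicate 2 at DDX19B, and its rank ran from the 1.02nd percentile in 2a to the 93.9th in 1a.

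The DDX19B region (chr16:70323243-70323589) was shared with the divergent gene AARS1 and lay 9500 bp from the main DDX19B start site, over the start site of an alternative DDX19B transcript. With only the main start site of each gene, DDX19B was the 1 helicase lost, leaving 21 (42.0%) against 32.8% of all genes. Its neighbour and paralogue DDX19A had a region of its own at the main start site, with peaks in 4 libraries and folds of 7.41 in 1a, 6.90 in 1c, 4.98 in 2b and 5.77 in 2c. DDX3X and DHX29, of translation initiation, and DDX6, of mRNA decapping and P-bodies, had no peak.

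Both helicases of mitochondrial RNA had a region. DHX30, needed for mitochondrial ribosome assembly, had 2 of them, and its strongest promoter peak per library had folds of 9.32 (1a) and 6.98 (1c) in replicate 1 and 6.52 (2a), 6.58 (2b) and 5.87 (2c) in replicate 2, with library 1a the highest. The region at its main start site (chr3:47844537-47844678) was called in 4 libraries, and that at an alternative start site 21725 bp away (chr3:47866353-47866530), the most GC-rich of all helicase regions at 77.0%, in 5. The strongest peaks of 2a and 2c lay at the main start site and those of 1a, 1c and 2b at the alternative one. At the alternative site the folds of 2a and 2c were 5.52 and 5.42. DDX28, also of the mitochondrial ribosome, had peaks in 1a, 2b and 2c, with folds of 6.16, 5.08 and 5.67, in a region (chr16:68057100-68057244) shared with DUS2.

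Of the helicases with other or less known roles, DDX59, mutated in an orofaciodigital syndrome, came next after DHX35 by its lowest percentile, 76.2, just ahead of DHX34. Its folds were 12.7 (1a) and 9.61 (1c) in replicate 1 and 8.61 (2a), 9.12 (2b) and 7.62 (2c) in replicate 2, and libraries of replicate 1 were above those of replicate 2. The peaks fell in 2 regions, chr1:200638980-200639273 over the main start site and chr1:200638512-200638807 downstream of it, which a single peak spanned in library 1a. The folds given for 1c, 2a and 2b came from the downstream region, which held no canonical motif. In the region over the main start site, which held both motifs, those libraries had 9.28, 8.36 and 8.21. DDX20 (Gemin3, of the SMN complex) had peaks in 4 libraries and DHX57 in 3. DDX1, of the tRNA ligase complex, had peaks in 1a, 1c and 2c with no base common to all 3, and so no region. DHX32 and DHX40 had no peak.

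The median peak of helicase promoters ranked below the median peak of all promoters in each list. The median percentile of fold enrichment of helicase promoter peaks was 55.9 (1a) and 52.6 (1c) in replicate 1 and 31.5 (2a), 33.5 (2b) and 41.1 (2c) in replicate 2. For the peaks at all promoters it was 60.1, 60.9, 54.2, 53.9 and 55.6 in the same order, so the helicases were lower in 5 of 5 libraries, by the most in 2a and the least in 1a. With only peaks of −log10 p of 10 or more, 11 helicases had a region (22.0%) against 24.9% of all genes. DHX35, DDX59, DHX34 and DHX30 were then the 4 with a peak in every library. For DHX30 the strongest peaks of the libraries lay at different start sites, as described above.

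**Figure D4:**
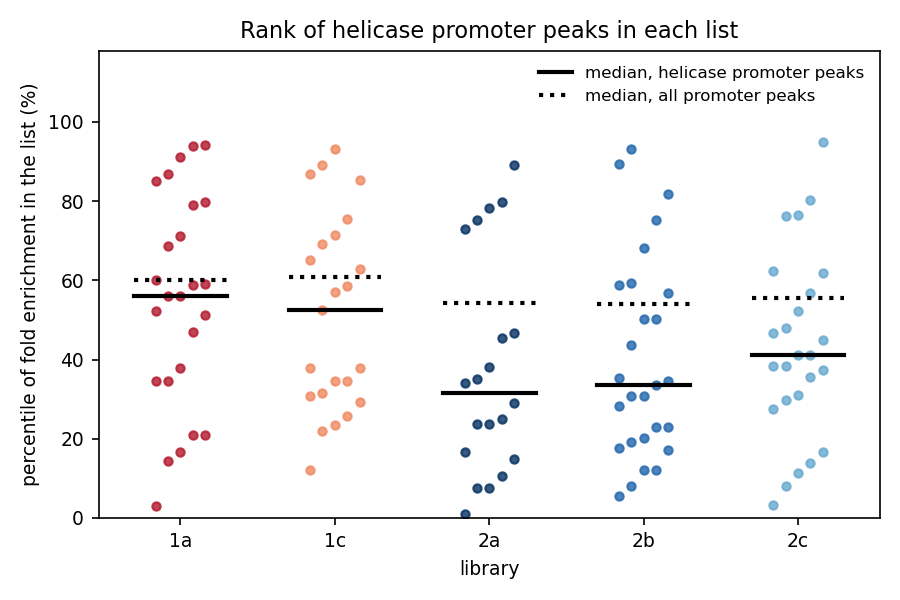
Each point is a peak within 1 kb of a helicase start site, placed by the percentile of its fold enrichment in the peak list of its library; solid lines are medians of these peaks and dotted lines medians of the peaks at all promoters. The solid line is below the dotted one in all 5 libraries, most in 2a (31.5 against 54.2).

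Helicase regions sat at the start site or just upstream. Of 24 regions, 13 covered a start site of the helicase, 20 had their middle upstream of the nearest one (83.3%, against 82.9% of the pairs of a gene and a region over all genes) and 23 lay within 250 bp of it (95.8%, against 89.3%). The median position of the middle was 73 bp upstream, and 68 bp upstream over all genes. The region farthest from a start site was that of DDX20, 254 bp away, and the nearest to a helicase outside the 1 kb limit was 4456 bp from DHX58. No helicase region therefore lay near the limit. By annotation of the helicase itself, 16 regions touched untranslated sequence, 10 intron and 3 a coding exon.

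**Figure D5:**
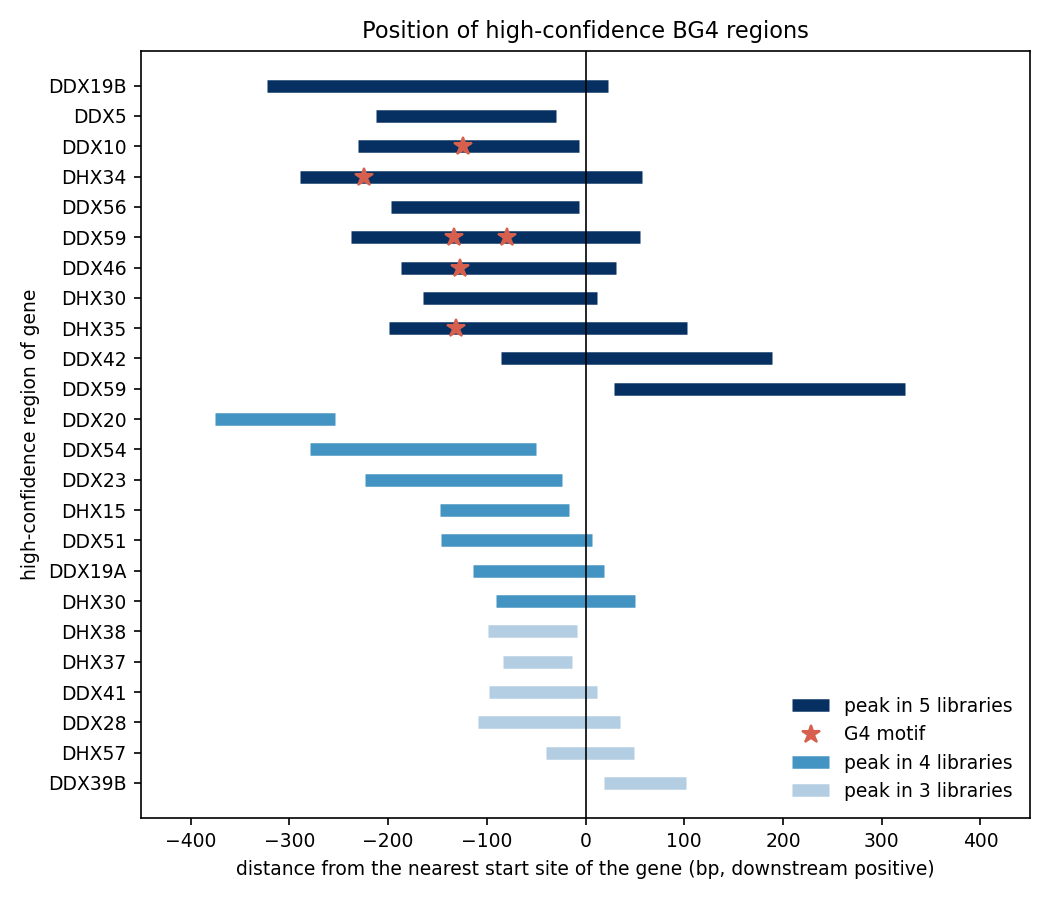
Horizontal bars show the 24 high-confidence regions by distance in bp from the nearest start site of the helicase gene (downstream positive), coloured by the number of libraries with a peak; stars mark canonical G4 motifs. Most bars lie left of or across the start site, and the 6 motifs are all upstream, in 5 regions called in 5 libraries.

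A start site of a gene on the opposite strand lay within 1 kb at 8 of the 24 regions (33.3%). Over all genes this held for 25.5% of 8035 pairs of a gene and a region, a measure that counts a shared region once for each gene. Of the 6848 distinct promoter regions, 16.5% were shared with any other gene. The opposite genes were MORN2 (at DHX57), RITA1 (DDX54), NOC4L (DDX51), DUS2 (DDX28), AARS1 (DDX19B), TXNL4B (DHX38), CCDC47 (DDX42) and CEP95 (DDX5). A region at such a promoter cannot be assigned to 1 of the genes. None of these 8 regions held a canonical motif.

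A canonical motif near a start site did not go together with a peak at every helicase gene. Within 1 kb of the main start site, a motif was found at 14 of the 22 genes with a region (63.6%), at 11 of the 18 with no peak in any library (61.1%) and at 68.6% of all genes. Over all genes it was found at 81.4% of those with a region and 61.8% of those without. Of the 10 helicases called in all 5 libraries, 9 had a motif there. Among these 9, DDX19B and DHX30 had their region called in 5 libraries at an alternative start site instead. DDX6 and DDX3X each had 4 motifs within 1 kb of the main start site and no peak. The lines below give 3 of the 7 motifs within 250 bp of the main start site of genes without any peak, with their distance in bp (GRCh37, on the G-rich strand, 5′ to 3′, capitals for runs of 3 or more G), for comparison with the motifs inside peaks. They lie at chr11:118661881-118661905, chr11:118661690-118661707 and chr14:94547362-94547390, in the order shown.
DDX6 at -20: GGGcGGGcgaacGGGcgagcgaGGG
DDX6 at +175: GGGctGGGtGGGGGcGGG
DDX24 at +172: GGGtcgctctGGGccggtGGGttcccGGG

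These letters describe sequence only and say nothing of folding. Within 1 kb of its main start site DDX6 had a GC content of 65.5%. This was above the main start sites of all 10 genes called in 5 libraries, which ran from 48.2% to 61.9%. At DDX19B, the lowest of them, and at DHX30 the region called in 5 libraries lay at an alternative start site. Over the family, GC content near the main start site was similar with and without a region (medians 53.7% and 52.7%), whereas over all genes the medians were 59.0% and 53.9%.

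The helicases without any peak also included all those of the germ line and antiviral roles. DDX4 (VASA), DDX25, DDX43 and DDX53 are known from germ cells or testis, and DDX60, DDX60L and DHX58 (LGP2) from the interferon response. DHX58 and DDX53 were the 2 helicases without a strict CpG island. With start sites of noncoding transcripts added, DHX58 gained a region that was called in all 5 libraries, and the count became 23 (46.0%, against 35.8% of all genes).

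Other RNA helicases and the partners of DDX and DHX proteins were counted from lists drawn up for this family. Of 18 RNA helicases with other symbols, 5 had a high-confidence region (27.8%, 95% Wilson interval 12.5 to 50.9, against 34.9% of all genes). They included EIF4A1, the translation initiation helicase, with folds from 8.02 in 2c to 9.75 in 1c, the spliceosomal SNRNP200 (5.54 in 2b to 7.59 in 2c), SKIC2 of cytoplasmic RNA decay (3.73 in 2c to 9.91 in 1a) and AQR and YTHDC2, in 3 libraries each. DICER1, in 2 libraries, and DQX1, in none, were without a region. Of 25 matched cofactors of the helicases, 13 had a region (52.0%, 33.5 to 70.0). Among them were GPATCH8 and GPATCH1, which carry the G-patch that activates DEAH box helicases, and PATL1 and CNOT1, partners of DDX6 in mRNA decay, each in all 5 libraries. AGGF1 and EDC3 had no peak. Both intervals include the background share.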

How the data were processed

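BG4 chromatin immunoprecipitation and sequencing was done in K562, with 2 technical libraries in biological replicate 1 and 3 in replicate 2. Peaks were called with MACS2 on hg19, per the submitters' processing notes. The aligner, control, settings and MACS2 version are not given in the sources used here. The lists show that the authors called peaks per library, not on pooled reads. The deposited score of a peak equalled its −log10 p multiplied by 10 and cut to a whole number, with 1 exception. The deposited fold enrichment is a ratio of summit signal to local background, and the deposited −log10 p and −log10 q also belong to the summit. The lowest −log10 p per list was 5.00 to 5.05. The 5 lists held 12495 (1a), 10079 (1c), 8059 (2a), 9026 (2b) and 11111 (2c) peaks. The depth is unknown, as read numbers are not given in the sources used here. The peak names inside lists 2a and 2c carry each other's letter, and the libraries are called here as the labels give them.

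The deposited list of 8955 high-confidence regions was identical to the bases covered by at least 3 of the 5 lists. Start sites came from protein-coding transcripts of GENCODE release 44 mapped to GRCh37, and sequences from the GRCh37 genome. Strict CpG islands were 500 bp windows in which the GC share reached 0.55 and the CpG count, relative to that expected from base composition, reached 0.65. Peaks and regions counted when 1 base lay within 1 kb of a start site. The percentile of a peak is its rank by fold enrichment in its own list. Shares carry 95% Wilson intervals, which cover counting error only. No test compared shares or groups, because there was a single condition. Dixon's critical value served only to flag outlying libraries.

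The helicases, roles and lists were chosen with earlier results of these data known. Members in all 5 libraries are given with their values, ordered by their lowest percentile, and the others mainly by counts. Of the RNA helicases with other symbols, all 5 genes with a region are named. Of the cofactors, the 4 with the highest lowest percentile are named. From each of these lists the first 2 alphabetically without a region are also named. Of 26 cofactors listed, 25 were found among the genes. The alternatives varied distance, start sites, peak strength, list length, libraries, islands and motif. The scripts, in Python 3.11.15 with numpy 2.4.6, scipy 1.17.1 and matplotlib 3.10.9, were tested on simulated data.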

Additional observations from a re-analysis of the deposited data

Results flagged for a closer look

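The fold enrichment of the DHX35 promoter peak in library 2c, 8.02, stood apart from those of the other 4 libraries, which ran from 9.85 in 2b to 10.6 in 1a. Its gap to the nearest of them, divided by the whole range, passed Dixon's critical value of 0.71 for 5 values. Of 11 such sets of 5 libraries this was the 1 that passed. With 5 independent values chance alone marks about 1 in 20. These are technical libraries of 2 biological replicates, so that rate need not hold here. The values come from separately called lists, and the part of list depth was not tested.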

How the results depend on the processing

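With peaks of −log10 p of 10 or more, helicases with a region fell from 22 to 11, those with a peak in all 5 libraries from 10 to 4, and the mean per biological replicate from 21.9 to 12.5. The difference in share from all genes was then -2.94 percentage points, and -9.40 weighted by island class. The mean per replicate was 22.9 with start sites of all transcripts, 20.7 with 1 main transcript per gene and 17.6 with lists of equal length, where the island-weighted difference was -2.34. It ran from 21 (without 2b) to 23 (without 2a) when 1 library was left out. Regions still needed at least 3 of the remaining libraries, and helicases with a region numbered 17 to 21. DDX39B, DHX37, DDX28 and DHX38, each with peaks in only 3 libraries, were lost both without 2b and without 2c. The share of regions with a motif was 79.2% with runs of 2 or more G. Weaker peaks dropped out by construction, and otherwise the cause was not tested. In all, 69 values stayed within their limit. It was a fixed factor for counts, and the spread or interval of the main value otherwise. The differences of -2.94, -9.40 and -2.34 points were among them, so a value within its limit could still change sign. No paired analysis was possible because the results come from 1 condition, and no test compared groups. Unknown depth limits every absence of a peak, which may lie under the calling threshold, and 50 genes limit each share to the intervals given.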
